A study of Takifugu rubripes with 9 samples.

Results

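The miRNA profile of the heart of adult wild type torafugu, *Takifugu rubripes*, was compared with those of slow muscle, intestine, eye, brain, liver, ovaries and testes. Heart was chosen by its tissue label and is 1 of 9 samples in the series, and 8 samples had a file of annotated reads, while fast muscle was not analysed here. The tissues were dissected from a pair of adult individuals, small RNA was sequenced on a SOLiD instrument, and each tissue gave a single library. The labels and methods do not state which chambers of the heart were taken or whether RNA of the individuals was pooled. With 1 library per tissue there is no replicate error, so no test between tissues was possible, and every difference below is a difference between these libraries.

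The heart library held 882181 annotated reads of 18 to 25 nt, and the other libraries held between 54540 (testes) and 1207961 (intestine). Annotated reads made up 35.0% of the 18 to 25 nt reads in heart, between 33.1% and 37.7% in the other somatic tissues, 2.58% in testes and 11.3% in ovaries. Reads were summed by miRNA name and arm and are given as counts per 1000000 annotated reads of their library (CPM). A hairpin precursor yields a miRNA from its 5′ side (5p) and another from its 3′ side (3p). Reads that the authors matched to a precursor but to no listed mature form are called precursor-only here and kept as a name of their own. Shares and ratios carry 95% exact (Clopper-Pearson) intervals, and these cover counting error alone, since reads were amplified and carry no molecular identifiers. The smallest value taken as detectable was 3 reads, which is 3.40 CPM in heart and 55.0 CPM in testes. A name counts as at the floor if heart had at most 3 reads and this limit raised the median of the other libraries. The testes limit can raise that median even where the median library itself had more than 3 reads. Of 631 names, 414 had a heart read, and comparisons were made over the 299 names with at least 100 CPM in at least 1 of the 8 libraries.

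A miRNA guides a silencing complex to messenger RNAs mainly through its seed, bases 2 to 8 from the 5′ end, so that a start shifted by a base makes a different seed. In vertebrates, miR-1 and miR-133 are transcribed together in all striated muscle, miR-206 is typical of skeletal muscle, and miR-499 lies within a slow-type myosin heavy chain gene. The heart also holds vessels and valves and is filled with blood. miR-126 lies within the endothelial gene Egfl7 and marks the vessel lining, and miR-451 and miR-144 are transcribed together in red cells, which in fish keep their nuclei.

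The following sequences are those with the most heart reads under the names on which the results turn. They were read from the deposited files, run 5′ to 3′, and have the seed in capitals. The precursor-only reads of miR-133 and miR-126 overlapped the 5p arms of those hairpins, and those of miR-499 and most of those of miR-140 overlapped the 3p arms. The main precursor-only sequence of miR-199 is the one known as miR-199-3p in other vertebrates.
miR-1-3p: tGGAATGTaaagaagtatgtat
miR-3571-5p: tGGAATGTaaagaagtgtgtat
miR-206-3p: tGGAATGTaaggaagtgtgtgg
miR-133 precursor-only (5p): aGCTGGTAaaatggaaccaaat
miR-133-3p, most common start: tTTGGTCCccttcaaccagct
miR-133-3p, start 1 base further in: tTGGTCCCcttcaaccagccgt
miR-499-5p: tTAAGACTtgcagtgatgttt
miR-499 precursor-only (3p): aACATCACtttaagtctgtgct
miR-126a-3p: tCGTACCGtgagtaataatgca
miR-126-3p: tCGTACCGtgagtaataatgc
miR-126b-3p: tCGTACCGtgagtaatagtgca
miR-126 precursor-only (5p): cATTATTActtttggtacgcg
miR-451-5p: aAACCGTTaccattactgagtt
miR-23a-3p: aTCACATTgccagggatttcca
miR-23b-3p: aTCACATTgccagggattacc
miR-130-3p: cAGTGCAAtattaaaagggcat
miR-301-3p: cAGTGCAAtagtattgtcatag

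miR-1-3p, miR-3571-5p and miR-206-3p share the seed GGAATGT. Counted from 1 at the 5′ end of the miR-1-3p sequence above, the miR-3571 sequence carries A17G, and the miR-206 sequence carries A11G, A17G, A21G and T22G. The names miR-126a-3p, miR-126-3p and miR-126b-3p share the seed CGTACCG. The 21-nt leading sequence of miR-126-3p is that of miR-126a-3p without its last base, so reads of the same arm were divided between names by the miRBase entry they matched. miR-23a-3p and miR-23b-3p share the seed TCACATT, and miR-130-3p and miR-301-3p share AGTGCAA. The miR-133-3p sequences shown differ in their 3′ bases as well as in their start, so they are not the same sequence shifted.

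Heart reads were spread over many miRNAs. The 4 most abundant names, miR-1-3p, miR-126a-3p, miR-145-5p and miR-451-5p, held 42.4% of the annotated heart reads, and the 20 most abundant names held 77.5%. Their known sites of expression differ, being striated muscle, endothelium, smooth muscle and red cells in that order. Evenness can be put as an effective number of names, the number of equally abundant names with the same Shannon entropy, and this was 36.2 in heart and between 10.3 (ovaries) and 47.2 (brain) in the other libraries. Reads of 21 to 23 nt made up 91.3% of heart reads, and 22 nt was the most common length (60.8%). The 5p and 3p arms held 43.6% and 48.6% of heart reads, and precursor-only names held 7.84% (7.79 to 7.90).

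**Figure D1:**
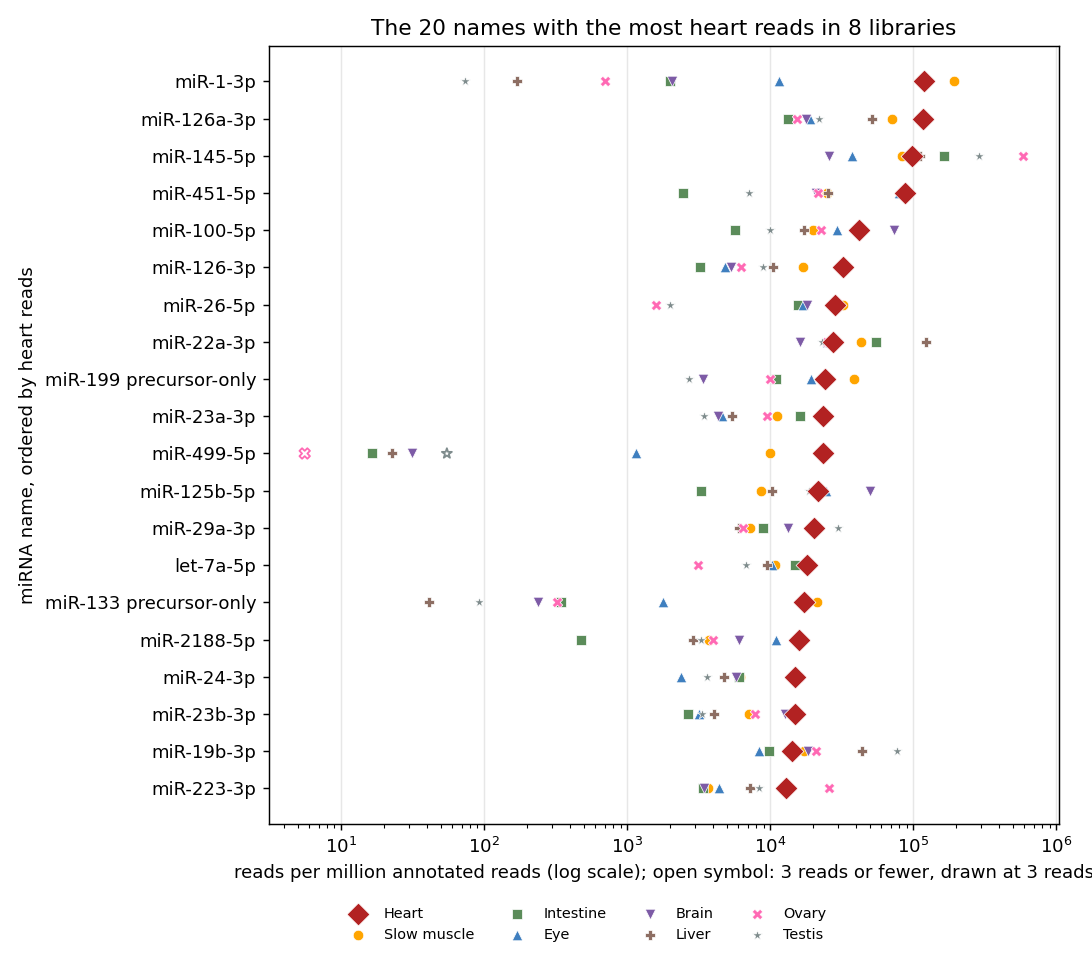
Level of the 20 names with the most heart reads (rows) in 8 libraries, as CPM on a log axis; red diamonds are heart, smaller symbols are the other tissues, and each symbol is 1 library. Heart lies to the right of all other symbols for miR-126a-3p, miR-451-5p, miR-126-3p, miR-23a-3p, miR-499-5p, let-7a-5p, miR-2188-5p and miR-23b-3p, and by the widest margin for miR-499-5p (23346 against 9945 CPM in slow muscle).

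The miRNAs of striated muscle held 17.1% of heart reads. The summed level of miR-1, miR-133, miR-206 and miR-499 was 170999 CPM in heart, against 385240 CPM in slow muscle and between 202 and 18690 CPM in the other 6 libraries. In bulk tissue, fewer cells of a type and less RNA per cell cannot be told apart, here and in every result below. Of the 18 names of this list with at least 100 CPM in a library, 16 were at least 2-fold above the median of the other libraries, 0 were 2-fold or more below it and the remaining 2 (the precursor-only reads of miR-133b, and miR-206-5p) were at or under 3 reads in both. Over all 299 names, 79 (26.4%) were at least 2-fold above the median and 57 (19.1%) were 2-fold or more below it. These counts were 82 and 31 when scaled to all 18 to 25 nt reads, 59 and 64 with DESeq2 size factors, and 57 and 75 with the top name of each library left out of its total. The median log2 ratio of heart to the median library was 4.51 for these 16 names and 0.30 over all names that were not at the floor. No read of any library carried the name miR-208, which in mammals lies within the cardiac myosin heavy chain genes.

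miR-1-3p was the most abundant name in heart. It was at 119661 CPM in heart, against 192944 in slow muscle, 11574 in eye, 2052 in brain, 2003 in intestine, 696 in ovaries, 169 in liver and 73.3 in testes. Both muscle tissues thus stood far above the rest, and heart was at 0.62 times slow muscle (0.615 to 0.625). miR-206-3p, which shares the seed of miR-1-3p, had 102 reads or 116 CPM in heart, against 91929 CPM in slow muscle and between 0 and 2097 CPM in the other 6 libraries. Heart was at 0.00126 times slow muscle (0.00103 to 0.00153), and eye also stood above heart.

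miR-499 showed the opposite order. miR-499-5p was at 23346 CPM in heart, against 9945 in slow muscle, 1160 in eye, 31.2 in brain, 22.9 in liver, 16.6 in intestine and 0 in ovaries and testes. Heart was highest, at 2.35 times slow muscle (2.29 to 2.41), and the order of both muscle tissues was kept under all 4 other scalings. The precursor-only reads of miR-499, whose leading sequence is the 3p strand, were at 1265 CPM in heart and 628 CPM in slow muscle, a ratio of 2.02 (1.81 to 2.25). The reads named miR-499-3p, which match a lizard entry, numbered 143 in heart (162 CPM) and 30 in slow muscle (41.4 CPM), with 0 in each of the other 6 libraries. The reads named miR-499a-5p were at 473 CPM in heart, at 1.57 times slow muscle (1.33 to 1.86). All 4 names had heart and then slow muscle at the top. Reads of the same miRNA can be divided between names by the miRBase entry they matched, so these names are not independent of each other. The study also ran quantitative PCR, which by its account did not match its sequencing for miR-499-5p, miR-192-5p, miR-196a-5p and miR-202-5p. The authors propose that the primers may have lacked specificity. They report a good match for miR-1-3p, miR-145-5p and miR-122-5p, among others.

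miR-3571-5p was also highest in heart among the 8 libraries analysed. It has the miR-1 seed and differs from miR-1-3p by the single substitution given above, and the name comes from a rat entry. It was at 3711 CPM in heart, against 2772 in slow muscle, 366 in eye, 55.9 in brain, 36.4 in intestine, 20.5 in ovaries, 4.57 in liver and 0 in testes. Its ratio to slow muscle was 1.34 (1.27 to 1.42), while that of miR-1-3p was 0.62. The study lists miR-3571-5p as putatively higher in fast than in slow muscle. Fast muscle was not analysed here, so the order of heart and fast muscle is not given. As groups of overlapping sequences rather than names, the ratio was 1.33 for the miR-3571 sequence and 0.614 for the miR-1 sequence. Whether the A17G sequence comes from a gene of its own was not tested.

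miR-133 differed between its arms. Its precursor-only reads, which are the 5p strand, were at 17137 CPM in heart, against 21182 in slow muscle, 1785 in eye, 344 in intestine, 322 in ovaries, 238 in brain, 91.7 in testes and 41.2 in liver. miR-133-3p was at 5231 CPM in heart, against 46203 in slow muscle, 1306 in eye, 250 in brain, 164 in ovaries, 113 in intestine, 32.0 in liver and 18.3 in testes. Heart was thus at 0.81 times slow muscle for the 5p strand and at 0.11 times for the 3p strand. miR-133b-3p was at 504 CPM in heart and 16092 CPM in slow muscle, a ratio of 0.03. For miR-133b-5p the ratio was 1.14, and its interval (0.86 to 1.52) included 1. The other names of the list in heart, miR-1c-3p, miR-1a-3p, miR-133a-3p, miR-133c-3p and the names of precursor-only reads of miR-1 and miR-133a, lay between 62.3 and 2404 CPM and all were below slow muscle, at ratios of 0.13 to 0.77.

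**Figure D2:**
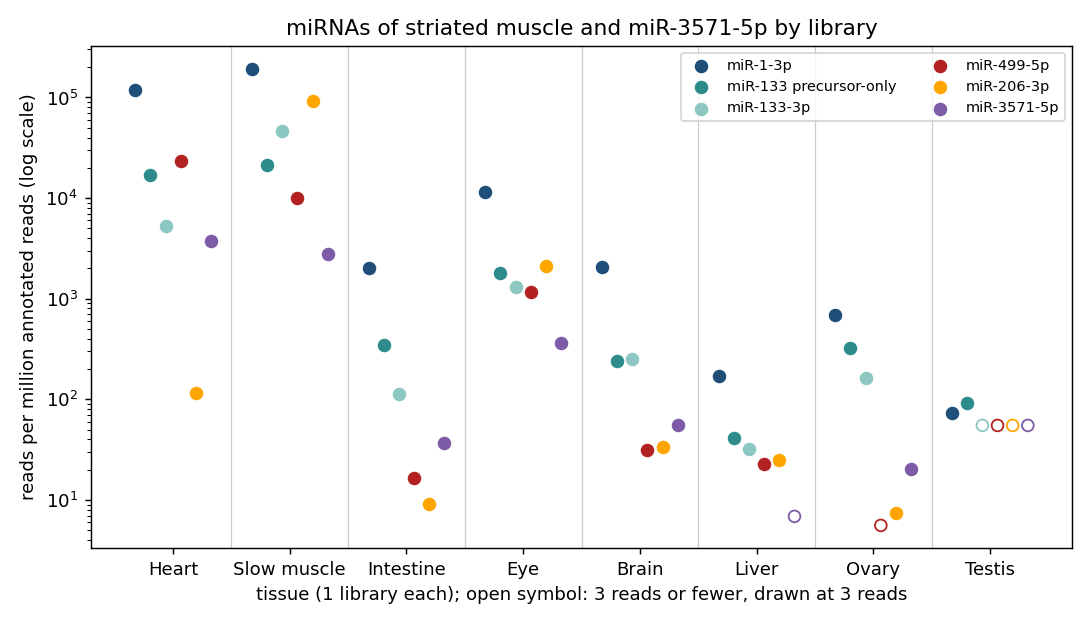
Level of 6 names in each library (heart at the left), as CPM on a log axis; each point is 1 library. miR-206-3p is at 116 CPM in heart and 91929 CPM in slow muscle, while miR-499-5p and miR-3571-5p are higher in heart than in slow muscle.

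The names of the vessel lining and of red cells followed. All 4 tested names of miR-126 were highest in heart and at least 2-fold above the median library, while 36 of all 299 names (12.0%) were highest in heart. miR-126a-3p was at 117664 CPM in heart, against 71215 in slow muscle, 51960 in liver, 21837 in testes, 19143 in eye, 17863 in brain, 15353 in ovaries and 13250 in intestine. Heart was at 1.65 times slow muscle (1.63 to 1.67). miR-126-3p was at 32575 CPM in heart and 16938 CPM in slow muscle, and between 3219 and 10540 CPM in the others. miR-126b-3p was at 1517 CPM in heart, 2.48 times slow muscle (2.23 to 2.77). The precursor-only reads of miR-126, which are the 5p strand, were at 12372 CPM in heart and 8425 CPM in slow muscle. The whole list summed to 164148 CPM in heart and to between 18460 and 97208 CPM in the other libraries, and under the 4 other scalings heart remained at 1.29 to 1.67 times slow muscle, the next library.

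The list of red cell miRNAs was nearly as high in eye as in heart. miR-451-5p, whose precursor is cut by an Argonaute protein instead of Dicer, was at 88061 CPM in heart, against 79220 in eye, 25276 in liver, 25069 in slow muscle, 21463 in ovaries, 20964 in brain, 7169 in testes and 2457 in intestine. The precursor-only reads of miR-144 were at 2110 CPM in heart, 1872 CPM in eye and at most 730 CPM elsewhere. The list summed to 90220 CPM in heart, 1.11 times eye, and this order was lost under TMM scaling, DESeq2 size factors and totals without the top name, where heart was at 0.91, 0.73 and 0.93 times eye. miR-144-3p had 15 heart reads and was 2-fold or more below the median library, though not when scaled to all 18 to 25 nt reads. The methods do not state whether blood was removed from the tissues, and its part in the heart values was not tested.

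The 4 tested names of white cell miRNAs had a median log2 ratio of 0.92 to the median library, and none was highest in heart. miR-223-3p, known from neutrophils and monocytes, was at 12899 CPM in heart, 25893 CPM in ovaries and between 3407 and 8361 CPM in the other 6 libraries. Scaled to all 18 to 25 nt reads, miR-223-3p was highest in heart instead, at 1.54 times the next library. miR-146a-5p, which is induced in inflammation in mammals, was at 2102 CPM in heart and 5192 CPM in intestine. Of the 4 tested names, 2 were at least 2-fold above the median and 0 were below it by that much, beside the 26.4% of all names that were above. The count above was 1 with TMM scaling or with the top name of each total left out, and 0 with DESeq2 size factors.

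Of the 36 names highest in heart, 29 were arms and 7 precursor-only, and they held 39.5% of heart reads. The next library was slow muscle for 12 of them, brain for 9 and eye for 7. The counting interval of the ratio lay above 1 for 31 of the 36. Only 5 names (1.67%) were at least 2-fold above every other library: miR-499-3p, miR-126b-3p, miR-499-5p and the names of precursor-only reads of miR-27b and miR-499. Without slow muscle among the others, 17 names were. For comparison, the count of names highest in a library was 25 in slow muscle and ranged from 24 (ovaries) to 67 (brain) over the others. The count of names 2-fold above every other library was 12 in slow muscle and ranged from 9 (ovaries) to 43 (brain). Heart, with 5, had the fewest such names of the 8 libraries. Being highest depended on the scaling, and 15 of the 36 remained highest under all 4 other scalings. Among the 10 with the largest ratio to the next library, 9 did so, and the exception was miR-365-3p, which was highest under 3 of the 4.

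The remaining names among those 10 were the following. The precursor-only reads of miR-27b, on the 5p strand, were at 216 CPM in heart and 83.9 CPM in brain, the next library, a ratio of 2.58 (1.97 to 3.40). miR-130-3p was at 6617 CPM in heart, against 3657 in eye, 3611 in slow muscle and 3579 in brain, and between 53.9 and 2860 CPM in the other 4. miR-365-3p was at 4827 CPM in heart and 2836 CPM in eye, a ratio of 1.70 (1.60 to 1.81). miR-27e-3p was at 1169 CPM in heart and 713 CPM in liver, a ratio of 1.64 (1.44 to 1.87). For miR-499-3p the ratio to slow muscle was 3.92 (2.63 to 6.02), while against testes, where 0 reads were raised to the floor of 3 reads or 55.0 CPM, the ratio was 2.95.

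Gene neighbours were taken from the RefSeq annotation of the assembly fTakRub1.2, as genes at most 10000 bases apart. The miR-23, miR-24 and miR-27 genes, known from vessels in mammals and zebrafish, lie in several such clusters. Over all names, 12.0% were highest in heart, 26.4% were at least 2-fold above the median and 19.1% were 2-fold or more below it. Of the 12 tested names of miR-23, miR-24 and miR-27, 8 were highest in heart, 11 were at least 2-fold above the median and 0 were 2-fold below it, with a median log2 ratio of 1.80. With DESeq2 size factors, and with the top name of each total left out, 5 were highest and 9 were 2-fold above. miR-23a-3p was at 23414 CPM in heart, against 16079 in intestine, 11248 in slow muscle and between 3465 and 9538 CPM in the other 5. In the cluster of mir-23a-1, mir-27e and mir-24-1, the 3p arms were at 4.31, 2.28 and 2.58 times the median. In the cluster of mir-27b and mir-23b, the ratios to the median were 3.79 and 3.66, and brain was the next library for both. Without the top name in each total, the summed list was no longer highest in heart, at 0.78 times the next library.

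The pair mir-301 and mir-130 gave miRNAs with a shared seed that were both highest in heart. miR-301-3p was at 3631 CPM in heart, 2381 CPM in liver and between 509 and 2113 CPM in the others. All 4 tested names of miR-130 and miR-301 were highest in heart and at least 2-fold above the median in CPM, beside 12.0% and 26.4% of all names. With TMM scaling, DESeq2 size factors and the top name of each total left out, 3 of the 4 were highest, and with the last of these 3 were 2-fold above. Their summed level was 12062 CPM in heart and between 1490 and 7223 CPM elsewhere, and under the 4 other scalings heart remained at 1.46 to 1.67 times the next library.

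Other neighbours did not share the order. miR-365-3p was at 2.01 times the median in heart, while miR-193-3p, from the adjacent gene, was at 168 CPM or 0.87 times the median. miR-222-3p was at 566 CPM and 1.09 times the median, while its neighbour miR-221-3p was at 49.9 CPM and 0.10 times. let-7g-5p was at 2269 CPM and 1.47 times the median, while its neighbour let-7h-5p was at 73.7 CPM and 0.15 times. Reads of let-7 names differ by few bases, and when all let-7 names were summed by number and arm, heart was at 1.55 times the median and 1.01 times the highest other library.

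The counts of connective tissue miRNAs depended on the scaling. Of 16 tested names of miR-29, miR-140, miR-199, miR-214 and miR-455, 9 were at least 2-fold above the median and 0 were 2-fold below it, with a median log2 ratio of 1.09, beside 26.4% of all names above. With TMM scaling, DESeq2 size factors and the top name of each total left out, 5 of the 16 were above. In both settings other than TMM 1 was below, and the median was as low as 0.56. miR-29a-3p, of a family that targets collagens in mammals, was at 20286 CPM in heart, 30015 CPM in testes and 19834 CPM in eye. miR-29d-3p was at 4202 CPM in heart and 3714 CPM in eye, and at 749 CPM in slow muscle. miR-140, known from cartilage, gave 6689 CPM of precursor-only reads in heart, 7053 CPM in eye and 995 CPM in slow muscle, and miR-140-3p was at 1470 CPM in heart and 1070 CPM in eye. For miR-29d-3p and both miR-140 names, heart and eye thus stood close together at the top.

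Several further names were far above slow muscle without being highest. miR-187-3p was at 1351 CPM in heart and 91.1 CPM in slow muscle, a ratio of 14.8 (11.6 to 19.3), and at 10215 CPM in brain. miR-21-5p was at 2545 CPM in heart and 229 CPM in slow muscle, and at 7144 CPM in intestine. miR-218a-5p, from within genes of the Slit family, was at 1786 CPM in heart and 174 CPM in slow muscle, and at 4580 CPM in brain. These names were picked after their values were seen. Of the 5 tested names of the list labelled fish miRNAs (miR-462, miR-731 and miR-2188), 4 were at least 2-fold above the median (26.4% of all names were) and 1 was highest in heart (12.0% of all names were). With DESeq2 size factors 2 were above and 0 were highest. The 1 highest in CPM was miR-2188-5p, at 16035 CPM in heart, against 11027 in eye, 6056 in brain and between 476 and 3995 CPM in the other 5, and with DESeq2 size factors it was at 0.96 times eye.

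Abundant miRNAs of heart that were near the median included miR-145-5p and miR-22a-3p. The 4 tested names of the smooth muscle miRNAs miR-143 and miR-145 had a median log2 ratio of -0.01, and their direction changed with the scaling (0.34 scaled to all 18 to 25 nt reads). miR-145-5p was at 98410 CPM in heart, between 25855 and 583322 CPM in the others, and at 0.88 times the median. miR-22a-3p was at 27439 CPM in heart and 123365 CPM in liver, and the 5 names of miR-22 had a median log2 ratio of 0.14 that was negative under 3 other scalings. The 15 names of the miR-17 to miR-92 clusters, which are expressed in dividing cells, had a median log2 ratio of -0.05, again positive (0.51) scaled to all 18 to 25 nt reads. Beside the counts in this paragraph, 12.0% of all names were highest in heart, 26.4% were at least 2-fold above the median and 19.1% were 2-fold or more below it. Of 28 names of let-7, miR-99, miR-100 and miR-125, 4 were highest in heart, 5 were at least 2-fold above the median and 4 were 2-fold or more below it. Among those above was miR-100-5p, at 41949 CPM in heart and 73799 CPM in brain. Under the other scalings 0 to 7 of the 28 names were highest and 2 to 10 were 2-fold above. miR-125b-5p was at 21483 CPM and let-7a-5p at 18228 CPM in heart. miR-26-5p was at 28433 CPM in heart and 32532 CPM in slow muscle, and the precursor-only reads of miR-199 at 24011 CPM in heart and 38394 CPM in slow muscle. miR-24-3p was at 15004 CPM in heart and 15793 CPM in ovaries, miR-23b-3p at 14932 CPM in heart and 12778 CPM in brain, and miR-19b-3p at 14228 CPM in heart and 76861 CPM in testes. Of 7 names of the miR-30 family, 3 were at least 2-fold above the median and 1 was 2-fold below it, and the count above was 1 with DESeq2 size factors and 0 with the top name of each total left out. miR-30c-5p was at 6783 CPM in heart, 8036 CPM in slow muscle and at a median of 2100 CPM, while miR-30d-5p was at 1971 CPM in heart and at a median of 4061 CPM. Of 6 names of miR-15 and miR-16, which are linked to cell cycle arrest in mammals, 3 were at least 2-fold above the median, and miR-15b-5p was at 2632 CPM in heart and 2457 CPM in testes. The count above was 2 with TMM scaling or DESeq2 size factors and 1 with the top name of each total left out, and in both settings other than TMM none of the 6 was highest. Of 4 names of miR-101, 2 precursor-only names were 2-fold or more below the median, while miR-101a-3p was at 1537 CPM in heart and at a median of 836 CPM.

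**Figure D3:**
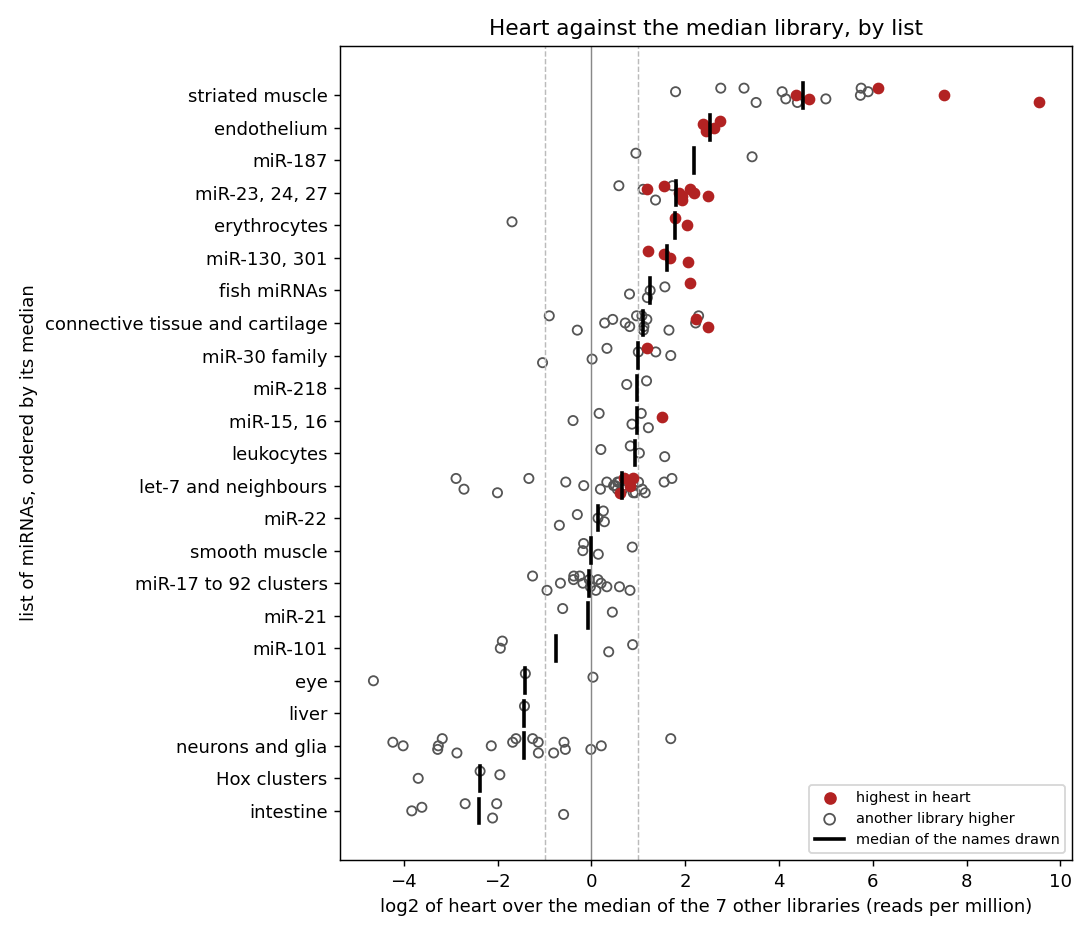
log2 ratio of heart to the median of the 7 other libraries for each tested name (points), by list of miRNAs (rows, ordered by their median, black bar). Filled red points are names highest in heart, dashed lines mark 2-fold, and names at the floor are left out. The list of striated muscle lies at a median of 4.51 and that of the endothelium at 2.54, while those of intestine and the Hox clusters lie at -2.40 and -2.37.

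At the other end, 57 of the 299 names (19.1%) were 2-fold or more below the median of the other libraries, and 25 (8.36%) were lowest in heart. Another 55 were at the floor and got no call. Of 11 tested names of the intestinal list (miR-192, miR-194, miR-215, miR-200, miR-141 and miR-429), 5 were 2-fold or more below the median, 5 were at the floor, and 0 were above. miR-192-5p was at 126 CPM in heart, against 352792 in intestine, 73751 in liver and a median of 1543 CPM, and heart was the lowest library. miR-194-5p, from the neighbouring gene, had 8 heart reads (9.07 CPM), against 21748 CPM in intestine and 919 CPM in slow muscle. Slow muscle had 11699 CPM of miR-192-5p, so that the low level was not shared by both muscle tissues. As given above, the study's quantitative PCR did not match its sequencing for miR-192-5p.

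Of 29 tested names of the neuronal and glial list, 12 were 2-fold or more below the median (19.1% of all names were). Of the others, 11 were at the floor, 1 was 2-fold above and 0 were highest. Scaled to all 18 to 25 nt reads, 7 were below. miR-124-3p, which is abundant in neurons, was at 224 CPM in heart, against 264089 in eye, and a median of 337 CPM. miR-138-5p was at 112 CPM in heart, 20901 CPM in brain and at a median of 1018 CPM, and heart was the lowest library. miR-338-3p was at 1667 CPM in heart, 35754 CPM in brain and 16321 CPM in slow muscle. The name above the median was miR-128-3p, at 2459 CPM in heart, 22253 CPM in brain and 673 CPM in slow muscle. Of 12 names of the eye list (miR-204, miR-183, miR-96 and miR-182), 2 were 2-fold or more below the median, beside 19.1% of all names. Another 9 were at the floor and got no call, so they say nothing particular to heart. miR-204a-5p was at 447 CPM in heart, against 98278 CPM in eye and a median of 437 CPM. Of the liver miRNA miR-122, miR-122-5p had 19 heart reads (21.5 CPM), against 133997 CPM in liver. No heart read carried the gonadal and germ line names miR-202 or miR-430, while the list summed to at most 17538 CPM elsewhere. The 95% interval of a name with 0 heart reads reaches 4.18 CPM.

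miR-217-5p, which in mammals is typical of the exocrine pancreas, had 0 heart reads. It was at 9378 CPM in liver, 1697 in brain, 1343 in eye, 721 in intestine, 36.7 in testes, 26.2 in slow muscle and 3.72 in ovaries. The median library was therefore far above the heart limit of 3.40 CPM that 3 reads set. The names of miR-216, whose genes lie beside that of miR-217, also had 0 heart reads.

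Hox cluster miRNAs separated heart from slow muscle. miR-10 and miR-196 genes lie among the Hox genes, which mark position along the body axis. Of 5 tested names, 3 were 2-fold or more below the median (19.1% of all names were) and the other 2 were at the floor. The list summed to 516 CPM in heart and to 5694 CPM in slow muscle, the highest library. Eye, at 48.0 CPM, was the only library below heart. miR-10b-5p was at 28.3 CPM in heart and 2423 CPM in slow muscle, and miR-196a-5p had 0 heart reads against 778 CPM in slow muscle. For miR-196a-5p too, the study's quantitative PCR did not match its sequencing. miR-10d-5p was at 11.3 CPM in heart and 291 CPM in slow muscle, with a median of 147 CPM. miR-10c-5p was at 469 CPM in heart, against 1730 CPM in slow muscle and 5422 CPM in liver, the highest library.

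The remaining names with the lowest ratios were miR-204b-5p, miR-7-5p, miR-221-3p, miR-458-3p and let-7h-5p. miR-204b-5p, from a family abundant in the eye, had 7 heart reads (7.93 CPM), against 6876 CPM in brain, and was at 0.04 times the median. miR-7-5p, known from neuroendocrine cells, was at 29.5 CPM in heart, 4397 CPM in brain and at a median of 297 CPM. miR-221-3p was at 49.9 CPM in heart and between 65.4 and 1287 CPM in the others, so that heart was below all of them. miR-458-3p was at 45.3 CPM in heart and between 101 and 6454 CPM in the others. Of the 57 names, 54 were below the median under all 4 other scalings.

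**Figure D4:**
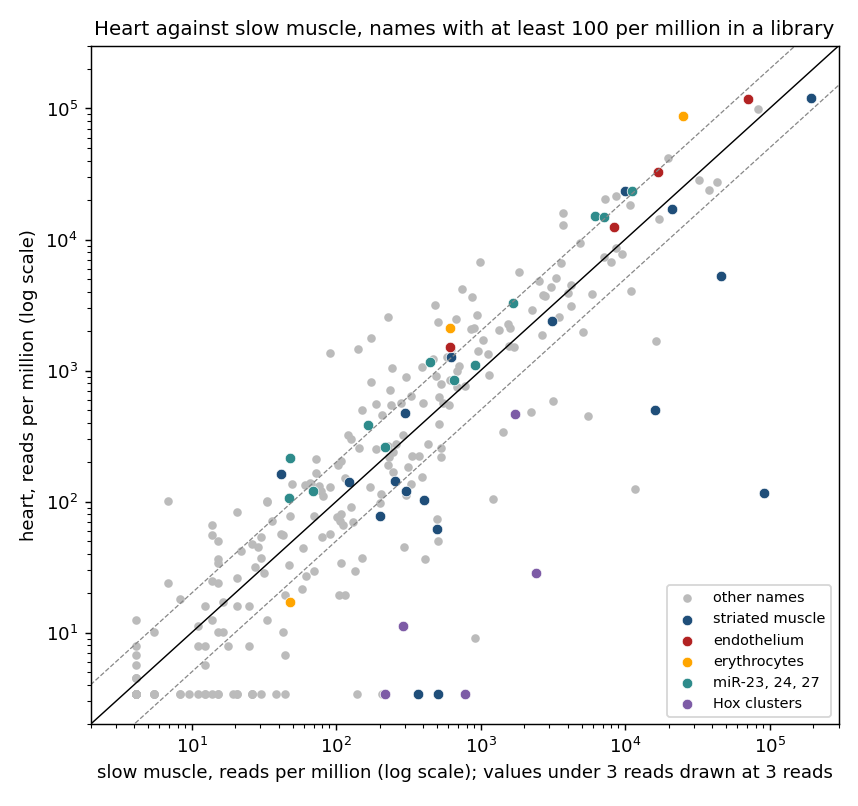
Heart against slow muscle for 299 names (points), as CPM on log axes; the solid line is equality, dashed lines are 2-fold, and values under 3 reads are drawn at 3 reads. Names of miR-206 and miR-133-3p (dark blue) and of the Hox clusters (purple) lie below the lower dashed line, while endothelial (red) and the main red cell names (orange) lie above equality.

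Slow muscle was the library most like heart. The summed smaller share of each name, which is 100% for equal profiles, was 66.6% with slow muscle and between 36.4% (intestine) and 48.6% (liver) with the others. Spearman's rho over the 299 names was 0.88 with slow muscle, 0.77 with ovaries, 0.71 with liver and intestine, 0.64 with eye, 0.63 with testes and 0.60 with brain. These values describe the libraries only, since names are not replicates and share precursors. Of the 20 most abundant heart names, 14 were also among the 20 most abundant of slow muscle. Between heart and slow muscle, 66 names were at least 2-fold higher in heart and 70 at least 2-fold lower.

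Arm use and 5′ starts were not used in choosing the names above. The 5p share of both arms could be taken by name for 29 miRNAs with at least 100 heart reads, 25 of them in at least 3 other libraries with 100 reads. For 21 of these 25, the heart share was within 5 percentage points of the median of the other libraries, and for 1 it was more than 10 points away. That 1 was miR-181a, with a 5p share of 85.2% (82.6 to 87.6) in heart, against 51.1% to 78.8% in 6 other libraries. Shares by name leave out precursor-only reads, so a strand without a listed mature form goes uncounted. Closeness to the median by name is therefore partly set by the annotation. In a second count, overlapping sequences were grouped and summed by miRNA number, so that its units are families and not single names. Precursor-only reads took the arm of the named reads in their group or, without such reads, the arm opposite the annotated one. There, 57 of 66 miRNA numbers were within 5 points and 3 were more than 10 points away. From the count by name to this one, the heart share moved from 11.2% to 62.6% for miR-210 and from 0% to 74.4% for miR-133. By name, the following were among those farthest from the median. miR-1388 had a 5p share of 18.1% in heart and 19.6% to 29.8% elsewhere, miR-140 had 61.6% in heart and 31.1% to 79.3% elsewhere, and miR-460 had 9.52% in heart and 3.97% in the single library that could be compared. In the count by miRNA number, miR-460 had 54.4% in heart and 40.2% to 61.2% in 3 other libraries. For miR-140, whose precursor-only reads are mostly 3p, the share in that count was 22.4% in heart and 7.74% to 34.4% elsewhere. Most miR-140 reads of heart were thus 3p once these were included. The sign of the difference from the median changed too, with 8.36 points above it in place of 6.54 points below.

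The arm use of miR-133 differed between the muscle tissues. With overlapping sequences grouped, 5p reads made up 74.4% (73.8 to 75.0) of miR-133 reads in heart, or 15256 reads against 5254 of 3p. In slow muscle they made up 25.6%, or 15726 against 45786 reads, and in the other 4 libraries with 100 reads between 45.4% and 71.7%. By name, miR-133b showed the same direction, with 21.8% (18.5 to 25.4) in heart and 0.757% and 3.70% in slow muscle and eye.

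The 5′ start of miR-133-3p also differed. Most miRNAs had a fixed start. The common start of an arm was the one that led in the largest number of the other libraries. Among the arms with at least 50 reads in heart and in another library, 113 (81.9%) had at least 90% of their heart reads at that start. The median share was 98.6% in heart and 98.7% in the other libraries. For the 3p reads of miR-133 in heart, 47.4% (46.0 to 48.8, 2486 of 5244 reads) had the start most common over all libraries and 40.3% (38.96 to 41.64) began 1 base further in. In slow muscle, 85.0% had the most common start and 12.7% began 1 base further in. The shares 1 base further in were 59.6% in ovaries, 39.4% in intestine, 22.5% in eye and 21.1% in brain, so heart stood on the side of intestine and ovaries, which had 165 and 109 reads. All these shares pool reads with different 3′ ends. For reads with A after their common 3′ stretch, 61.0% in heart and 21.9% in slow muscle began 1 base further in. For reads ending with that stretch the shares were 25.2% and 6.18%, and for reads without it 52.2% and 17.1%. For reads with G after it the order was reversed, at 19.8% of 388 reads in heart and 26.2% of 626 in slow muscle. The starts give the seeds TTGGTCC and TGGTCCC shown in the sequences above, which also differ in their 3′ bases. miR-133a-3p was the only arm whose most common heart start was not that of most other libraries, and it rests on 51 heart reads and on slow muscle alone (45.1% against 83.6% at the common start).

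**Figure D5:**
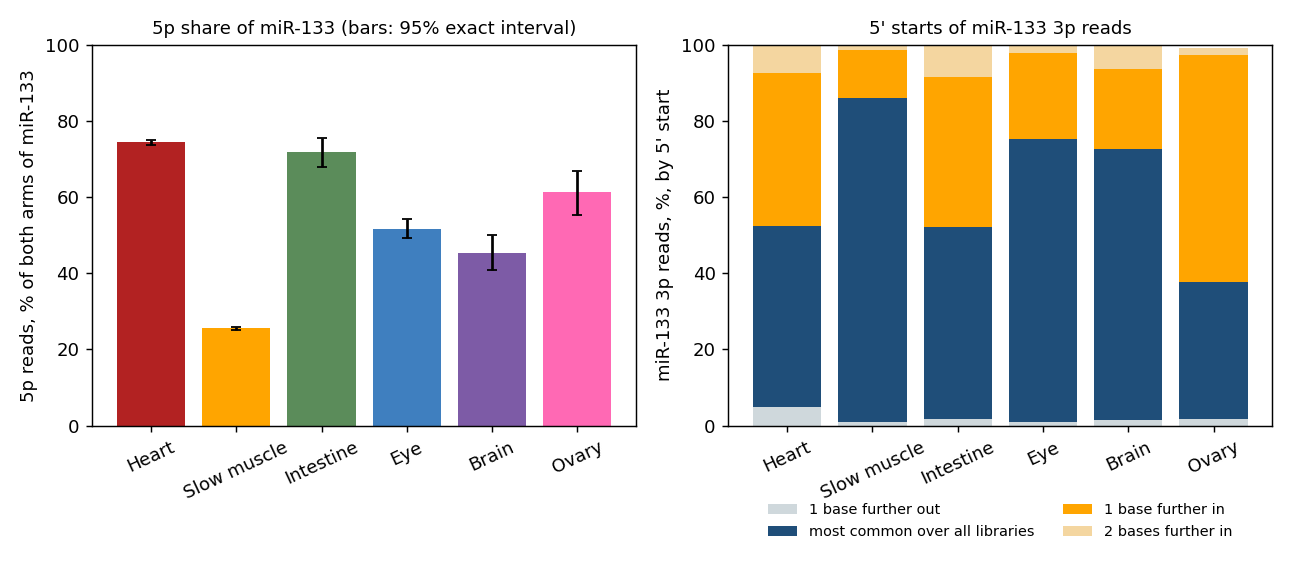
Left, share of 5p among all miR-133 reads in the 6 libraries with at least 100 of them, with 95% exact intervals; right, share of miR-133 3p reads by their 5′ start in the same libraries. Heart has 74.4% 5p reads and 47.4% of 3p reads at the most common start, against 25.6% and 85.0% in slow muscle.

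Among the same arms, 7 had a share at the common start at least 10 points below the median of the other libraries and 1 was as far above. miR-133b-3p was at 44.0% (39.2 to 48.9) in heart, against 90.8% in slow muscle and 85.1% in eye. let-7b-5p was at 81.6% (79.6 to 83.4) in heart and between 86.9% and 96.2% in 6 other libraries. miR-1388-3p was at 76.0% (72.0 to 79.8) in heart and between 82.7% and 90.2% elsewhere, and miR-462-5p at 50.1% (47.8 to 52.4) in heart and between 52.1% and 74.6% elsewhere. The study compared the single most abundant sequence instead of pooled starts. By that measure it lists miR-462-5p of heart and brain as starting 1 base further in than in the other tissues. It also lists miR-133-3p, where slow muscle and liver start 1 base further out than heart and the other tissues listed. In the pooled 3p reads of miR-133 given above, that outer start was instead the most common in heart, eye, brain and intestine too. Among the arms tested for starts, the same sequence was dominant in heart and in every other library tested for 79. Mean read length in heart was above all other libraries tested for 17 of these arms and below all for 16. All these counts are out of the tested arms, of which 113 made up the 81.9% given above. For some of them, such as miR-133a-3p, slow muscle was the only other library tested.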

How the data were processed

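For each tissue the authors deposited unnormalized counts, giving the number of reads for every distinct sequence. Per the study's methods, they trimmed SOLiD reads, kept 18 to 25 nt, and searched them against mature miRNAs of miRBase in CLC genomics workbench, accepting ends that differed by a few bases but no internal mismatch; reads annotated under their later criteria were not analysed here. Names come from entries of many species, so similar sequences can be split between names. No genome was used, and 0 sample columns were left unused.

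Counts were summed by name and arm, copy suffixes dropped, and divided by the summed count of the file (CPM). Heart was set against the highest, median and lowest of the other 7 libraries, with values raised to 3 reads before a ratio. Names at the floor, with at most 3 heart reads and a median raised by this step, got no call. No test was run, since each tissue has 1 library. The names given in the text are the 20 with most heart reads, the 10 highest in heart and the 10 lowest against the median (of at least 100 CPM) by ratio, all striated muscle names, 5 by arm share, those with another start, and 2 to 4 examples per list. The members and lists were chosen with earlier results of these data known. Starts needed 50 reads per library; overlaps of at least 16 bases with shifts of at most 4 bases grouped sequences. Neighbouring genes came from RefSeq (fTakRub1.2), whose coordinates were used for no other purpose.

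Alternatives were totals of all 18 to 25 nt reads as the study gives them, TMM (edgeR 4.0.16), DESeq2 1.42.0 size factors, totals without the top name, mature or identical matches only, other minimums and folds, tissues left out and, chosen after seeing the data, groups of overlapping sequences. Counting steps were tested on simulated data. Python 3.11.15 (numpy 2.4.6, pandas 2.3.3, scipy 1.17.1, matplotlib 3.10.9) and R 4.3.3 were used.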

Additional observations from a re-analysis of the deposited data

How the results depend on the processing

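The count of names highest in heart was 36, and it was 19 with DESeq2 size factors, 23 with the top name left out of each total, 11 with identical matches only, 23 with names summed by number and arm, and 82 with no minimum level. The count at least 2-fold above every other library was 5, and it was 2 with DESeq2 size factors, 3 with mature matches only, identical matches only or a minimum of 1000 CPM, 17 without slow muscle, 12 at 1.5-fold, 0 at 3-fold, where miR-499-3p is limited by the floor of testes, and 8 with groups of overlapping sequences. The count at least 2-fold above the median was 79, and it was 41 with identical matches only, 51 with a minimum of 1000 CPM and 44 at 3-fold. The count 2-fold or more below the median was 57, and it was 31 scaled to all 18 to 25 nt reads, 37 with mature and 30 with identical matches only, 34 without sequences under 10 reads and 32 with a minimum of 1000 CPM. The count lowest in heart was 25, and it was 6 scaled to all 18 to 25 nt reads, 15 with mature and 7 with identical matches only, 8 without sequences under 10 reads, 15 with a minimum of 1000 CPM and 43 without ovaries and testes. The cause of these shifts was not tested, beyond the fewer names or libraries that some settings leave.

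Scaling moved the median log2 ratio of heart to the median library, 0.30 in CPM, by 0.48 scaled to all 18 to 25 nt reads, by -0.12 with TMM, by -0.33 with DESeq2 size factors and by -0.28 with the top name left out. Of names 2-fold from the median, 58.1% were higher in CPM, 72.6% scaled to all 18 to 25 nt reads, 56.2% with TMM, 48.0% with DESeq2 size factors and 43.2% with the top name left out. Of the names at least 2-fold below another library or the median in heart, miR-223-3p was at 1.54 times the highest other library scaled to all 18 to 25 nt reads, and let-7h-5p, summed with all let-7, was 1.01 over the highest and 1.55 over the median. Of 1060 values of named miRNAs under these alternatives, 621 stayed within their counting interval and 436 did not. No paired analysis was possible because each tissue has 1 library. Testes, with 54540 reads, set the limit on low names.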
